A study of Mus musculus with 2 samples.

Results

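The genes described here encode 10 costimulatory and inhibitory surface proteins of dendritic cells, here in plasmacytoid dendritic cells (pDCs), which are known for making large amounts of type I interferon. They are Cd80, Cd86, Icosl, Cd274 and Pdcd1lg2 of the B7 family, the TNF receptor superfamily members Cd40 and Cd27, and the inhibitory receptor genes Havcr2, Btla and Cd200r1. All 10 were measured, out of 19938 genes with a name in the platform annotation, each by the probe set whose single gene symbol is that gene. Cd80 had 2 such probe sets, and the one with the higher mean log2 level was used. The genes were chosen by family and role, with their log2 differences on these 2 arrays already known, so every count over them is a description.

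One array held RNA of pDCs from chimeras made with Runx2-/- fetal liver cells. The other held RNA of pDCs from wild type fetal liver chimeras. In both groups the blood system of a host mouse had been rebuilt from donor fetal liver, and bone marrow was taken 2 months after reconstitution. Cells negative for CD11b and positive for BST2 and B220 were sorted as pDCs, and their RNA (250 ng in total per sample) was hybridised to the Affymetrix Mouse Gene 1.0 ST platform. The stated gate has no marker that separates donor cells from host cells that remained. The labels give no host strain, age, sex or number of mice per sample. With 1 array per genotype, differences carry no error and were not tested.

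A dendritic cell gives a T cell more than the antigen. B7 proteins on its surface engage receptors of the CD28 family on the T cell, which either add to activation (CD28, ICOS) or restrain it (CTLA-4, PD-1). CD40 and CD27 are TNF receptors that recruit TRAF adaptors and switch on NF-kappaB. BTLA, TIM-3 (the product of Havcr2) and the CD200 receptor restrain the cell that carries them when they meet their ligands. Resting pDCs display little B7 protein and raise it when their nucleic acid sensors are triggered.

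Of the 10 genes, 3 were at least 2-fold higher in the Runx2-deficient sample than in the wild-type sample: Cd27, Cd200r1 and Btla. Havcr2 was at least 2-fold lower, and the other 6 lay within 2-fold. Among all named genes, 0.436% were higher by 2-fold or more and 0.647% lower by 2-fold or more on the same arrays. The median difference of the 10 genes was 0.33 on the log2 scale, from -1.73 to 1.67, beside a median of -0.03 over all named genes. A difference is always the log2 intensity of the Runx2-deficient sample minus that of the wild-type sample. In sorted bulk cells, fewer cells that carry a transcript and less of the transcript per cell cannot be told apart.

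Runx2 is a transcription factor of the Runt family, whose members bind a short DNA core. The stretches upstream of Btla, Havcr2 and Cd27 are therefore shown, 3 of the 4 genes at least 2-fold apart, to let a reader see where that core stands. They are the 250 bases before the annotated start site, from RefSeq on GRCm38.p6. All are read 5′ to 3′ on the strand of the gene, with matches to the RUNX core TGTGGT, in either orientation, in capitals.
Btla, chr16:45224087-45224336, plus strand: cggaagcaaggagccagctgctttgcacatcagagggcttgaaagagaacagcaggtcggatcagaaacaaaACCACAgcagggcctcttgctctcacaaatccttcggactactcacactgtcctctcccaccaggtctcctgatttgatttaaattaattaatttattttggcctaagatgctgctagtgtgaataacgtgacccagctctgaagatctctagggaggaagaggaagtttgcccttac
Havcr2, chr11:46454681-46454930, plus strand: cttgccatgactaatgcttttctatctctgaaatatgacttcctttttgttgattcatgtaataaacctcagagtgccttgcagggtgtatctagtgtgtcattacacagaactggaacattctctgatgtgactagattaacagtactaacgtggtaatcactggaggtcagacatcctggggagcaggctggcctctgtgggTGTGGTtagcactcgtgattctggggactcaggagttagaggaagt
Cd27, chr6:125237028-125237277, minus strand: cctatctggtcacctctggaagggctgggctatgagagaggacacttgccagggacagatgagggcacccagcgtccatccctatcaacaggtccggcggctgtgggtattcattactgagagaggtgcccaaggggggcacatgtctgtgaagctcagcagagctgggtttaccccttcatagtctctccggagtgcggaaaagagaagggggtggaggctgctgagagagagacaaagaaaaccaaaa
The Btla stretch holds the core on the opposite strand, with its first printed base 178 bases before the start site. In Havcr2 it lies on the gene's own strand, 46 bases before the start site. Cd27 has no match in these letters. Windows were searched from 250 bases before to 50 bases after a start site, and 7 of the 10 genes had one: Btla, Cd27, Cd274, Cd80, Havcr2, Icosl and Pdcd1lg2. No entry was used for Cd40, Cd86 and Cd200r1. The core was in 3 of these 7 windows, the third being Pdcd1lg2, where it starts at base 2 after the start site. Of all 32851 windows of that length, 16.8% hold it. An interferon response motif (GAAA repeated after any 2 bases) and an NF-kappaB motif (GGGA and TTTCC around any 1 base), searched on both strands, were in 0 of the 7 windows and in 3.44% and 0.411% of all windows. No match overlapped another. A match is only a run of letters, present in a gene that was higher (Btla), one that was lower (Havcr2) and one that was nearly level (Pdcd1lg2).

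**Figure D1:**
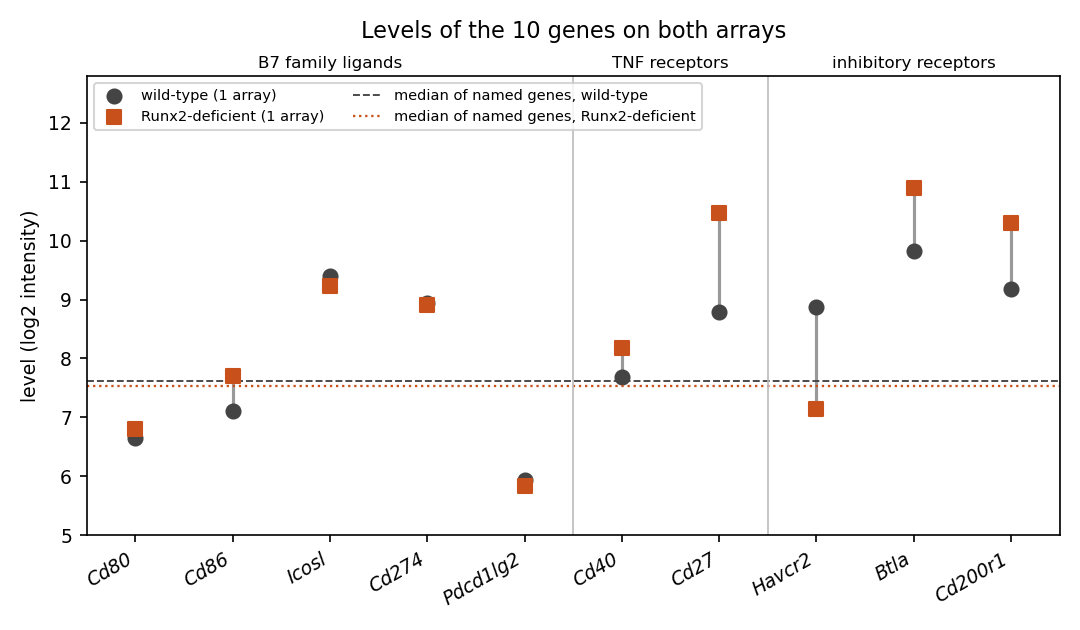
Levels of the 10 genes as log2 intensity (vertical axis), 1 point per gene and array, with the wild-type array as circles, the Runx2-deficient array as squares and the median of all named genes on each array as dashed and dotted lines. Cd27, Btla and Cd200r1 are higher and Havcr2 is lower in the Runx2-deficient sample, while Cd80 and Pdcd1lg2 lie below the median on both arrays.

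The B7 family ligands were close to level, apart from Cd86. The family had 0 of 5 genes 2-fold apart, 2 of 5 above 0 and a median difference of -0.04. Among all named genes, 0.436% were higher and 0.647% lower by 2-fold or more. A count of 0 in a list this short therefore says little, here and in the lists below. CD80 and CD86 are the ligands shared by CD28 and CTLA-4. Cd86 had an intensity of 139 units on the wild-type array and 208 units on the Runx2-deficient array. Its wild-type level lay below the median of all named genes on that array (196 units) and its Runx2-deficient level above the median there (186 units). The difference of 0.58 lay outside the -0.47 to 0.38 that held the central 95% of the 500 named genes nearest to Cd86 in mean level. That range describes these arrays and is no test. Cd80 was dim on both arrays, at 100.4 and 112 units, a difference of 0.16. Its second probe set, which is the one matched to the RefSeq transcript of Cd80 in the annotation, was at 62.7 and 74.4 units, a difference of 0.25. Neither Cd80 probe set reached the median on either array.

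Icosl, the ligand of the T cell receptor ICOS, through which pDCs are known to favour regulatory T cells, was at 675 units on the wild-type array and 603 on the Runx2-deficient array, a difference of -0.16. Cd274, which encodes PD-L1, was at 491 and 478 units. Its difference of -0.04 was the smallest in size of the 10 genes. Pdcd1lg2, which encodes PD-L2, the second ligand of PD-1, was at 61.6 and 57.1 units, below the median on both arrays, a difference of -0.11. Icosl and Cd274 were above the median on both arrays, and the differences of Cd80, Icosl, Cd274 and Pdcd1lg2 all lay inside the central 95% of genes of like level.

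Both TNF receptor genes were higher in the Runx2-deficient sample, Cd27 strongly and Cd40 within 2-fold. Cd27, a costimulatory receptor best known from T cells, was at 444 units on the wild-type array and 1411 on the Runx2-deficient array. Both levels were above the median. The ratio was 3.18-fold, a difference of 1.67. Of the 19938 named genes, 16 had a difference at least as high, Cd27 included. Cd40, the receptor through which helper T cells license dendritic cells and B cells, was at 205 and 289 units, just above the median in the wild-type sample. Its difference of 0.49 (1.41-fold higher) lay inside the -0.62 to 0.68 that held the central 95% of genes of like level. Cd27 lay outside its own range of -0.66 to 0.63.

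The inhibitory receptor genes went both ways and were all at least 2-fold apart. On the same arrays, 0.436% of all named genes were higher and 0.647% lower by 2-fold or more. Btla, an immunoglobulin superfamily receptor that binds the TNF receptor HVEM, was at 912 units on the wild-type array and 1901 on the Runx2-deficient array. The ratio was 2.09-fold, a difference of 1.06, and 76 named genes, Btla included, were at least as high. Cd200r1, the receptor for CD200 on myeloid and dendritic cells, was at 579 and 1254 units, 2.17-fold higher, a difference of 1.12. Its paralogs Cd200r2, Cd200r3 and Cd200r4, which follow it directly on chromosome 16, were below the median on both arrays, with differences of 0.24, 0.12 and 0.27. How far the probes of Cd200r1 also bind transcripts of these paralogs was not tested. Havcr2, whose product TIM-3 binds galectin-9, CEACAM1 and HMGB1 and is known to dampen nucleic acid sensing in dendritic cells, was at 470.0 units on the wild-type array and 142 on the Runx2-deficient array. It was 3.32-fold lower, a difference of -1.73, and 45 named genes, Havcr2 included, were at least as low. The Runx2-deficient level lay below the median, so this ratio rests on a dim value. Relative to genes of like level, whose central 95% ran from -0.77 to 0.59 for Btla, from -0.70 to 0.59 for Cd200r1 and from -0.60 to 0.63 for Havcr2, all 3 lay outside.

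**Figure D2:**
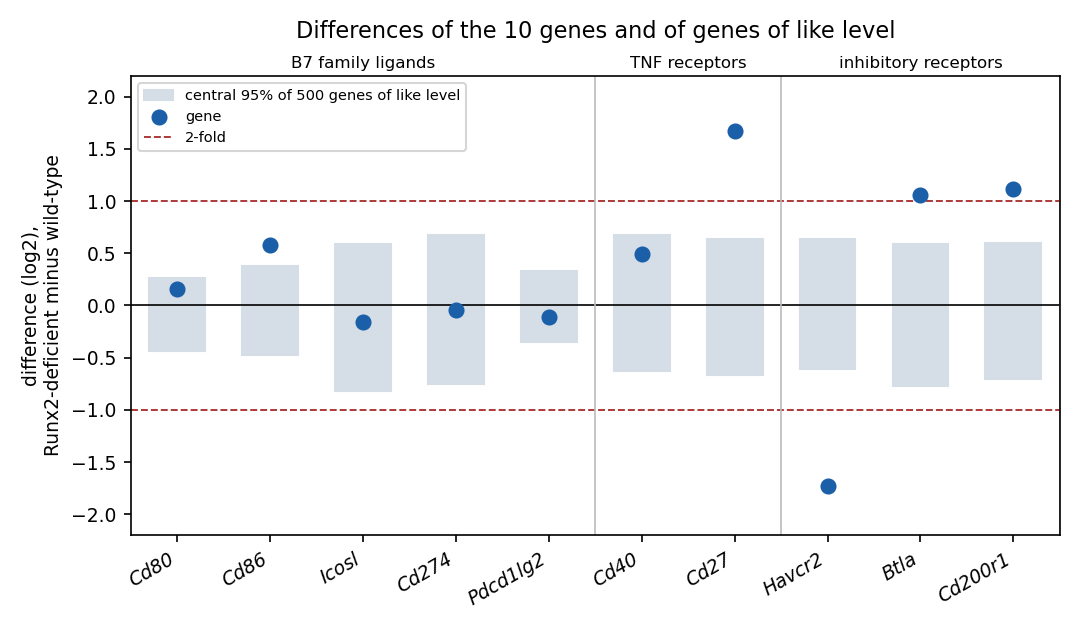
Difference of each gene (points, log2 intensity of the Runx2-deficient minus the wild-type array) over the central 95% of the differences of the 500 named genes nearest in mean level (bars), with dashed lines at 2-fold. Cd86, Cd27, Btla, Cd200r1 and Havcr2 lie outside their bars, and of these Cd86 lies within 2-fold.

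The genes of binding partners of these proteins had differences centred near 0, and 7 of the 14 were above the median on at least 1 array. The list also holds Tnfsf14 and Cd160, whose products bind HVEM and are not direct partners of the 10 proteins. Of 14 partner genes, 0 were 2-fold apart, beside 0.436% of all named genes higher and 0.647% lower by as much. Of the 14, 10 were above 0 and the median difference was 0.02. Tnfrsf14, which encodes the BTLA ligand HVEM, was at 1346 units on the wild-type array and 1373 on the Runx2-deficient array, a difference of 0.03. Cd200, the ligand of the CD200 receptor, was at 1054 and 1056 units, a difference of 0.0024. Each of these genes thus lay near 0 on arrays where its receptor gene was over 2-fold higher.

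For the TIM-3 ligands, Lgals9 (galectin-9) differed by 0.08, Ceacam1 by 0.0023 and Hmgb1 by -0.11, all 3 above the median on both arrays. Cd70, the ligand of CD27, was at 82.6 and 83.3 units and Cd40lg at 43.7 and 42.0 units, below the median on both arrays. Tnfsf14 and Cd160, further partners of HVEM, were also below it, with differences of -0.0068 and 0.07. Among the receptors of B7 proteins, Cd28 was at 835 and 1081 units, a difference of 0.37, while Ctla4 (0.47), Icos (0.04) and Pdcd1 (0.17) were below the median on both arrays. Rgmb, a second binding partner of PD-L2, was at 364 and 266 units, a difference of -0.45.

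**Figure D3:**
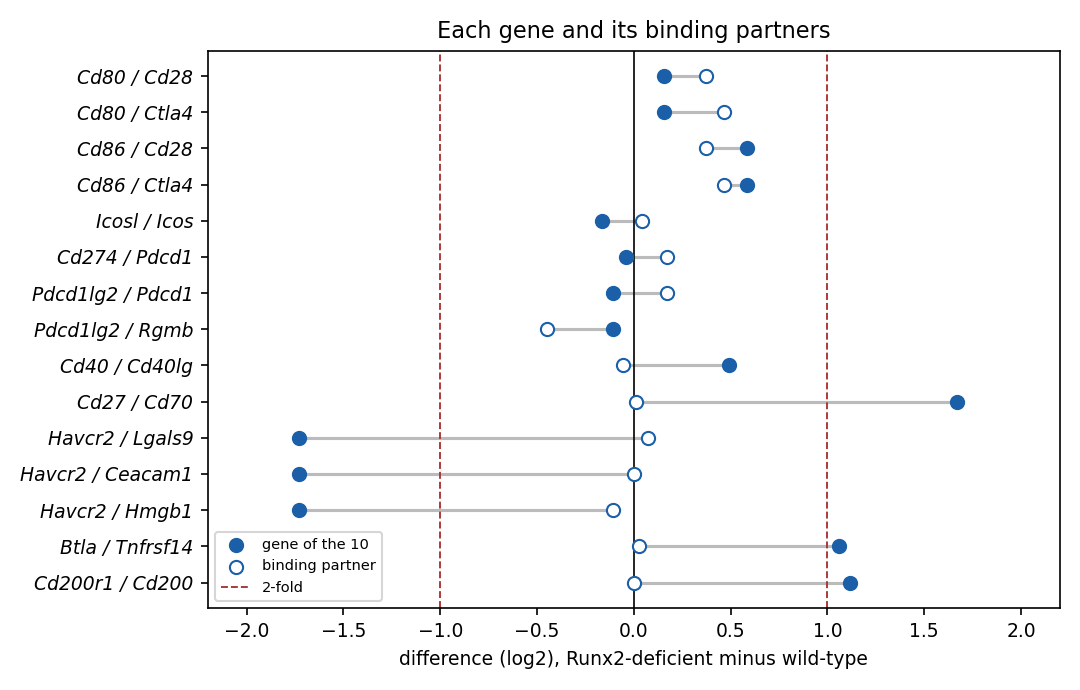
Difference of each of the 10 genes (filled points) and of a gene that encodes a binding partner of its product (open points), joined by a line, on the horizontal axis in log2 units, with dashed lines at 2-fold. Cd27, Havcr2, Btla and Cd200r1 lie beyond 2-fold and their partner genes lie between -0.11 and 0.08.

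Related families were counted over all measured genes of each list. The genes named from them are mostly those furthest from 0 in each direction among genes above the median on at least 1 array. Of 7 other B7 and butyrophilin genes, 0 were 2-fold apart, beside 0.436% of all named genes higher and 0.647% lower by as much. The median of the 7 was -0.0060. Cd276 (B7-H3) differed by 0.26, and Vsir, which encodes the checkpoint protein VISTA, by -0.12, and Btnl9 by -0.10. Of 11 other TNF superfamily costimulator genes, 0 were 2-fold apart and the median was -0.08. Tnfrsf18 (GITR) was at 305 and 445 units, a difference of 0.54, Tnfrsf4 (OX40) differed by 0.13 and Tnfrsf8 (CD30) by -0.08. The ligand genes Tnfsf4 and Tnfsf9, which dendritic cells use to engage OX40 and 4-1BB, were below the median on both arrays, with differences of 0.15 and -0.35.

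A further list held 27 genes of other inhibitory receptors, their paralogs and related surface proteins, not all of them inhibitory. Of these, 1 was higher by 2-fold or more and 1 lower by as much, beside 0.436% and 0.647% of all named genes. The median of the 27 was 0.07. Cd22, a sialic acid binding inhibitor of the B cell receptor, was at 257 units on the wild-type array and 755 on the Runx2-deficient array, 2.94-fold higher. Cd72, another inhibitory coreceptor of B cells that mouse pDCs also express, was at 2819.7 and 999 units, 2.82-fold lower. Fcgr2b, the inhibitory Fc receptor, differed by 0.52 and Cd300lf by 0.27. Lag3, an inhibitory receptor for MHC class II that is known from pDCs, differed by -0.74 and Pilra by -0.46. Havcr1, a relative of Havcr2 that encodes TIM-1, was at 3587 and 4322 units, a difference of 0.27, and Timd2, the named gene 3 places from Havcr2 on chromosome 11, by -0.17 below the median on both arrays.

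Signalling genes downstream of these receptors were within 2-fold, like nearly all named genes (0.436% higher and 0.647% lower by 2-fold or more). Of 20 measured genes, 0 were 2-fold apart, 9 were above 0 and the median was -0.0026. On the TNF receptor side, Birc2, a ubiquitin ligase of the TRAF complex, differed by 0.57, Traf1 by 0.33 and Nfkb2 by 0.31. On the inhibitory side, the phosphatase gene Ptpn6, which encodes the SHP-1 recruited by BTLA, was at 3579.6 and 3577.7 units and Ptpn11 (SHP-2) differed by 0.08. Dok2, an adaptor of the CD200 receptor, differed by -0.24 and its relative Dok1 by -0.35 below the median. Bag6, which binds the tail of TIM-3, was at 1113 and 739 units, a difference of -0.59, and the kinase gene Fyn at 5967 and 3840 units, a difference of -0.64. Grb2 differed by -0.25.

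Genes that change when dendritic cells mature differed in both directions. The list was not split by the direction in which each gene changes on maturation. Its counts and median therefore do not show whether the samples differed in maturity. Of 20 genes, 1 was higher by 2-fold or more and 1 lower by as much, beside 0.436% and 0.647% of all named genes. In the list, 12 were above 0 and the median was 0.10. Ccr7, the receptor that takes mature dendritic cells to lymph nodes, was 2.56-fold higher, and Marcksl1 and Nfkbia differed by 0.59 and 0.32. Cd83, a surface protein of mature dendritic cells, was at 109.7 and 172 units, below the median on both arrays, a difference of 0.65. The MHC class II chain gene H2-Ab1 was 2.01-fold lower, its activator gene Ciita differed by -0.87 and H2-Eb1 by -0.55.

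**Figure D4:**
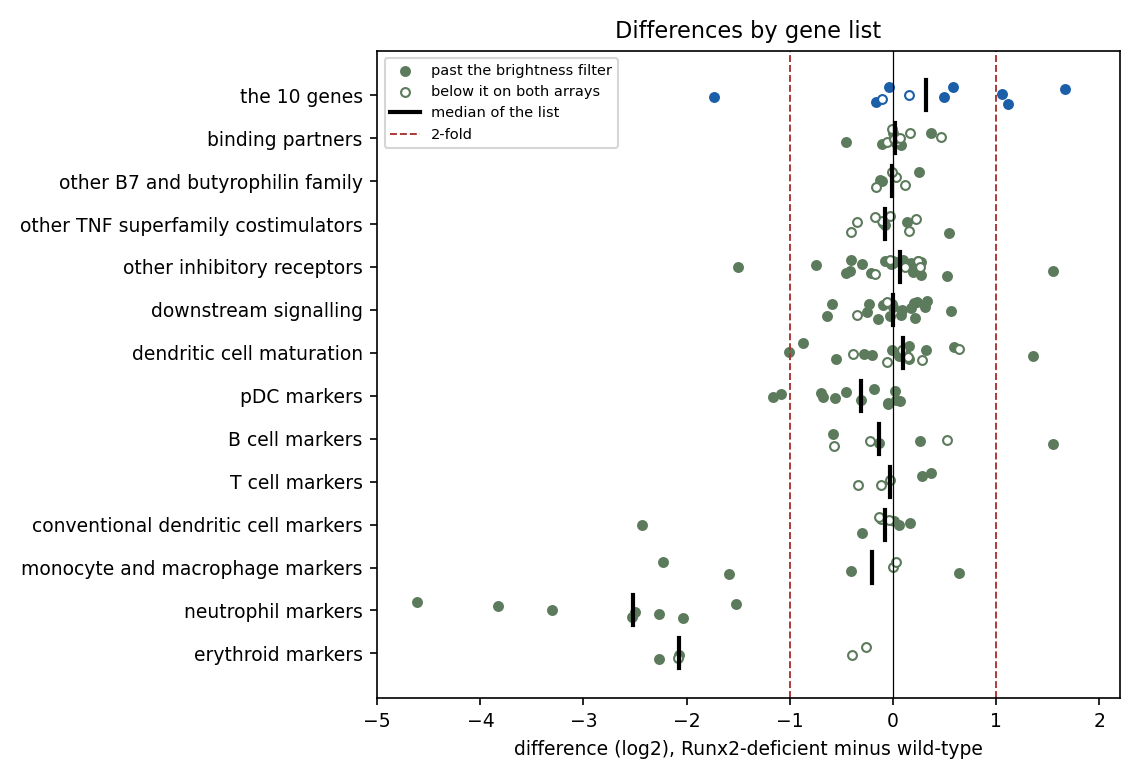
Difference of every measured gene of each list (points, log2 intensity of the Runx2-deficient minus the wild-type array; open points lie below the median of named genes on both arrays), with the median of the list as a bar and dashed lines at 2-fold; vertical scatter within a list has no meaning. Binding partners, related families and signalling genes centre near 0, and the neutrophil and erythroid markers lie to the left with medians of -2.52 and -2.07.

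The position of the genes in the genome was compared with the differences of their neighbours. By RefSeq gene order, 4 of the 10 genes lie on chromosome 16 (Cd80, Cd86, Btla and Cd200r1), and Cd274 and Pdcd1lg2 are adjacent on chromosome 19. Of the 54 named genes among the 3 nearest on either side that are not themselves among the 10, 1 was higher by 2-fold or more and 1 lower by as much, with a median of 0.02. Both lie near Cd40 on chromosome 2. Cdh22, a cadherin gene next to it, was at 221 and 523 units, 2.37-fold higher, and Mmp9, a neutrophil granule metalloproteinase gene 3 places away, was at 295 and 144 units, 2.05-fold lower. Next to Btla lie Cd200 (0.0024) on one side and Atg3 (0.43) on the other. Cd27 is flanked by Tapbpl (0.40) and Tuba3a (-0.42, below the median), and Havcr2 by Med7 (0.32) and BC053393 (-0.07, below the median). No neighbour of Cd27, Btla, Cd200r1 or Havcr2 among those 3 on either side was 2-fold apart. Of all named genes, 0.436% were higher and 0.647% lower by 2-fold or more.

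Other cells in the sort were looked for through markers, since several of the 10 genes are also used by B cells, T cells and myeloid cells. The pDC genes Siglech, Tcf4, Irf8 and Ccr9 were above the median on both arrays and differed by 0.07, -0.04, 0.03 and 0.02. With Cox6a2 (-0.05) they were the nearest to 0 of 13 measured pDC markers, and 10 of the 13 were below 0, with a median of -0.31. Ptprs (-1.16) and Cadm1 (-1.09) were at least 2-fold lower, and Spib (-0.69), Irf7 (-0.68), Pacsin1 (-0.56), Ly6d (-0.46), Bst2 (-0.31) and Il3ra (-0.19) within 2-fold. Of 7 B cell markers, Cd22, also in the inhibitory receptor list above, was the one at least 2-fold apart and the median was -0.14, with summed intensities of 3151 units on the wild-type array and 3870 on the Runx2-deficient array. Ms4a1, Pax5 and Ebf1, which define B cells, were below the median of all named genes on both arrays. The other 4 were above it on both, Cd79b at 1999.6 and 2397 units, Cd79a at 398 and 267, Vpreb3 at 209 and 189.7 and Cd22 as given above. Of 5 T cell markers 0 were 2-fold apart, with summed intensities of 1311 and 1545 units, and Cd3d, Cd3e and Cd3g were below the median on both arrays. Cd28, which is also a binding partner above, carried most of that sum, and Cd247 was at 157 and 192 units. The sums without Cd28 were 476 and 464 units. Beside the marker counts here and below, 0.436% of all named genes were higher and 0.647% lower by 2-fold or more.

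Myeloid markers at least 2-fold apart were all lower in the Runx2-deficient sample, while smaller differences went both ways. Whether pDCs themselves or other cells gave the signal of markers such as Itgax, Clec9a and Ccr2 was not tested. Of 8 conventional dendritic cell markers, Itgax was the one at least 2-fold apart, at 2047 and 379 units, and the summed intensities were 11339 and 9453 units. Zbtb46, Xcr1 and Itgae were below the median on both arrays, Batf3 was near it, and Clec9a (3891 and 4366 units), Sirpa (3788 and 3073) and Clec10a (1079 and 1122) were well above it. Of 6 monocyte and macrophage markers, Ccr2 and Lyz2 were at least 2-fold lower, Cd68 differed by -0.40 and Csf1r by 0.64, Fcgr1 and Adgre1 were below the median on both arrays, and the summed intensities were 8880 and 5518 units. All 8 neutrophil markers were lower by 2-fold or more (wild-type and Runx2-deficient arrays, 16773 and 1833 units summed), as were 3 of 5 erythroid markers (1712 and 551 units), 2 of 4 platelet markers (5978 and 816 units) and 3 of 3 Y-linked genes (1428 and 158 units). The Y-linked genes mark male cells, not a cell type, and their signal was higher in the wild-type sample. Sex thus differed along with genotype on these arrays, and its part was not tested. NK cell, basophil and plasma cell markers had 0 of 4, 0 of 5 and 0 of 4 genes 2-fold apart. No marker of any list was at an intensity of 0, but neither was any probe set on these arrays (lowest 15.3 units). This therefore does not show that each marker was detected. Havcr2 was lower on the same array as Itgax, Ccr2, Lyz2 and the neutrophil, erythroid, platelet and Y-linked genes, and their part in its difference, or in those of Cd27, Btla and Cd200r1, was not tested.

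Runx2 itself was not analysed here, since no probe set carries its symbol alone in the annotation used, so the deleted gene gives no check of the genotype labels.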

How the data were processed

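The study measured gene expression in sorted bone marrow pDCs on 2 Affymetrix Mouse Gene 1.0 ST arrays, 1 per genotype. Per the labels, the authors applied RMA, which corrects background, equalises probe distributions between arrays and summarises probes. The authors' deposited table holds linear intensities, 15.3 to 20364 units, with medians of 182 (Runx2-deficient) and 183 (wild-type) over 35556 probe sets. RMA normally gives log2 values, so a back-transformation is likely but not stated. RMA shrinks the differences of dim probe sets, and no detection call was used. The number of arrays limits the precision: no test across samples is possible, so none was made.

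The arrays were compared as log2 values of the deposited intensities. Of all probe sets, 21789 have 1 gene symbol, 1621 several and 12146 none, and only the first kind was named. Each gene took its probe set with the highest mean. A gene was called different at 2-fold. The brightness filter was the median of named genes on at least 1 array, which 8 of the 10 genes (6 on both arrays) and 10337 of all named genes passed. Genes outside the 10 were named by rule: all binding partners, from other lists up to 3 genes per direction past the filter plus any gene 2-fold apart (neutrophil, erythroid, platelet and Y-linked genes are given as counts and sums only), chromosome neighbours 2-fold apart, and single genes chosen after their values were seen. Among the latter are Cd83, Havcr1, Timd2, Tnfsf4, Tnfsf9, the Cd200r1 paralogs, Ptpn6, Ptpn11, Dok1, Dok2, the flanking genes of Btla, Cd27 and Havcr2 and some cell markers. The members and lists were chosen with earlier results of these data known. Listed genes that no single-symbol probe set measured were dropped. Protein sequences were not used here. Versions were matplotlib 3.10.9, pandas 2.3.3 and numpy 2.4.6 under Python 3.11.15, with lowess from statsmodels 0.14.6.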

Additional observations from a re-analysis of the deposited data

How the results depend on the processing

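Across the alternatives run, 3 of the 10 genes were past the threshold as higher and 1 as lower: centring on the median of all probe sets (which is 0.0, so it changed nothing) or of named genes (added after seeing the data), a lowess correction for intensity (span 0.3), the mean of all probe sets of a gene, 50 units added before log2, and a threshold of 1.5-fold. Averaging probe sets could alter Cd80 alone, since each of the other genes has 1 probe set. At 1.5-fold the count of 3 is narrow, since Cd86, 1.498-fold higher, lay just short of that threshold. The counts were also 3 and 1 without the 2 genes below the brightness filter, but Havcr2 and Cd86 passed it only on the array where they are higher, so that setting and its median of 0.54 say nothing about stability. The median difference otherwise ran from 0.26 to 0.39. Btla stayed closest to the 2-fold threshold, from 1.02 to 1.09. Havcr2, whose Runx2-deficient value is dim, was at -1.44 with 50 units added, against -1.73. No paired analysis was possible because each genotype has 1 array. The dim genes Cd80 and Pdcd1lg2 and the dim partner genes are limited by signal near background, where RMA shrinks differences.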
